A study of Mus musculus with 6 samples.

Results

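Kinesins are motor proteins that use ATP to walk along microtubules or to shorten them, and each family has a characteristic job. In neurons, which no longer divide, kinesin-1 (Kif5), kinesin-2 (Kif3), kinesin-3 (Kif1) and kinesin-4 (Kif21) motors carry vesicles, mitochondria and other cargo out along axons and dendrites or act on the growth of microtubules there. In dividing cells another set, among them Kif11, Kif20a and Kif23, separates the spindle poles, moves chromosomes and completes cytokinesis, and the genes of that set are switched on late in the cell cycle. A culture of fetal cortex holds both kinds of cell, so both sets can be read from the same RNA.

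The members were the protein-coding genes of the count table whose mouse symbol begins with Kif and a number, or is Kifc and a number. The rule found 42 of the 43346 genes in the table. Of these, 11 belonged to the transport families (Kif1a, Kif1b, Kif1c, Kif3a, Kif3b, Kif3c, Kif5a, Kif5b, Kif5c, Kif21a, Kif21b), 12 were mitotic (Kif2c, Kif4, Kif11, Kif14, Kif15, Kif18a, Kif18b, Kif20a, Kif20b, Kif22, Kif23, Kifc1) and 18 were other kinesins. The remaining 1, Kif1bp, matched by its symbol but encodes a kinesin-binding protein without a motor domain, and was kept out of all groups.

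RNA came from primary cortical cells of mouse fetuses at gestational day 15.5. The cells received either the solvent DMSO as vehicle or 10HDA at 1 mM, and each treatment had 3 libraries. 10HDA is a hydroxylated fatty acid that honeybees secrete in royal jelly. Both treatments shared the strain, named Cyp19-EGFP in the labels and C57BL/6 in the methods, and the genotype SRY+. The labels placed 1 library of each treatment in each of cultures 1, 3 and 4, so the treatments were compared over 3 cultures. The question was how RNA expression in these cells changed with 10HDA. The libraries held 9144736 to 13367194 counts on genes. The summed level of Uty, Kdm5d, Ddx3y and Eif2s3y, all on the Y chromosome, was 8.89 and 9.21 CPM (a count scaled to a common library total) in the vehicle and 10HDA libraries of culture 1. It was 95.2 to 132 CPM in the other 4 libraries, which goes against the SRY+ label of culture 1. Xist, normally transcribed from the inactive X chromosome of females, had 1012 and 1430 CPM in the vehicle and 10HDA libraries of culture 1, 419 and 397 CPM in culture 3, and 822 and 632 CPM in culture 4, which goes against the label in all 3 cultures. Because of its low Y-linked level, results are also given without culture 1. Since cultures 3 and 4 also held Xist, this does not leave a set that fits the label.

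What sets mitotic kinesin genes apart in sequence is shown first. Genes of the late cell cycle often carry near their start a cell cycle homology region, a short element bound by the MuvB complexes that repress or activate them through the cell cycle, together with CCAAT boxes bound by NF-Y. The RefSeq promoter windows (GRCm38.p6, from 250 bases before to 50 bases after a gene start) were searched on both strands for the element's core TTTGAA, its variant TTCGAA, and CCAAT. Windows were matched for 11 of the 12 mitotic kinesins, 8 of the 11 transport kinesins and 13 of the other kinesins. Kif20a, Kif21b, Kif5a and Kif5b had no matched window. The following stretches, each of 30 bases and read 5′ to 3′ along the gene, are the matches to TTTGAA nearest the gene start in the 8 mitotic kinesins that had one within 30 bases of it, and the capitals mark the core (TTCAAA where it lies on the opposite strand).
Kif11: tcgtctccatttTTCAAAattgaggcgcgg
Kif15: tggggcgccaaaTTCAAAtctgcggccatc
Kif18b: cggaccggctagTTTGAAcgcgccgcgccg
Kif20b: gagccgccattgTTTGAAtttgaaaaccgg
Kif22: gggccccggtaaTTCAAAagagagaagcgg
Kif23: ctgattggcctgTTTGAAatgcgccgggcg
Kif4: ctctgggatcaaTTTGAAacttggcggtta
Kifc1: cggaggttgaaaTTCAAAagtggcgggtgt
The Kif11 stretch is chr19:37376351-37376380 on the plus strand, and its core begins 19 bases before the gene start. The core lies at the same distance of 19 bases in Kif15 (chr9:122951050-122951079, plus strand) and at 17 bases in Kif22 (chr7:127042420-127042449, minus strand). In Kif18b (chr11:102925104-102925133, minus strand), Kif23 (chr9:61946780-61946809, minus strand) and Kifc1 (chr17:33890615-33890644, minus strand) it begins just inside the transcript, at bases 4, 3 and 2. In Kif20b (chr19:34922353-34922382, plus strand) 2 cores stand end to end from base 8, and in Kif4 (chrX:100626072-100626101, plus strand) the core begins at base 20.

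The core TTTGAA was found in 10 of 11 mitotic kinesin genes (90.9%), against 1 of 8 transport genes (12.5%) and 2 of 13 other kinesin genes (15.4%). Among all 27025 genes with a window the share was 20.2%, and among the 10455 of them that were expressed here it was 13.7%. Within 30 bases of the start the core was found in 8 of 11 mitotic genes (72.7%) and in no transport gene, against 3.72% of all genes and 2.43% of expressed genes. Of the 13 other kinesins 1 (7.69%) had it there, Kif26b, 9 bases before the start. Kif14 and Kif2c held it farther upstream, at 228 and 103 bases before the start of the window's transcript. Both of these starts lie inside the gene as annotated by GENCODE. The Kif14 stretch is chr1:136467608-136467637 in a plus-strand gene that begins at 136466343. The Kif2c stretch is chr4:117178858-117178887 in a minus-strand gene that begins at 117182639. All distances here are from the RefSeq start, and the GENCODE start also differed for genes among the 8. The Kif4 and Kif22 stretches lie inside GENCODE genes that begin at 100625737 and 127042471. Distances from GENCODE starts were not counted. Kif18a held none of the motifs in its window. The core TTTGAA and a CCAAT box stood in the same window in 7 of 11 mitotic genes (63.6%) and in none of the transport genes, against 7.97% of all genes. Both also stood together in 2 of 13 other kinesins (15.4%), Kif26b and Kif27. The only transport match was in the second of the 2 windows of Kif1a, 44 bases before an internal start site:
Kif1a: tttgacagcctcTTTGAAcattgctcctaa
That stretch is chr1:93082507-93082536 on the minus strand. CCAAT alone was less distinctive, at 63.6% of mitotic, 37.5% of transport and 41.1% of all genes. TTCGAA was found in no mitotic and no transport gene, and in 1 other kinesin, Kif24. No match to one motif overlapped a match to another in these windows. A set of 28 partner genes of cell division (cyclins, mitotic kinases, kinetochore and cytokinesis proteins) was close to the mitotic kinesins in this respect, with the core in 18 of 24 matched genes (75.0%). The set includes Cenpe, a kinesin of the kinetochore whose symbol the rule does not match. These are matches of letters, and binding was not measured.

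**Figure D1:**
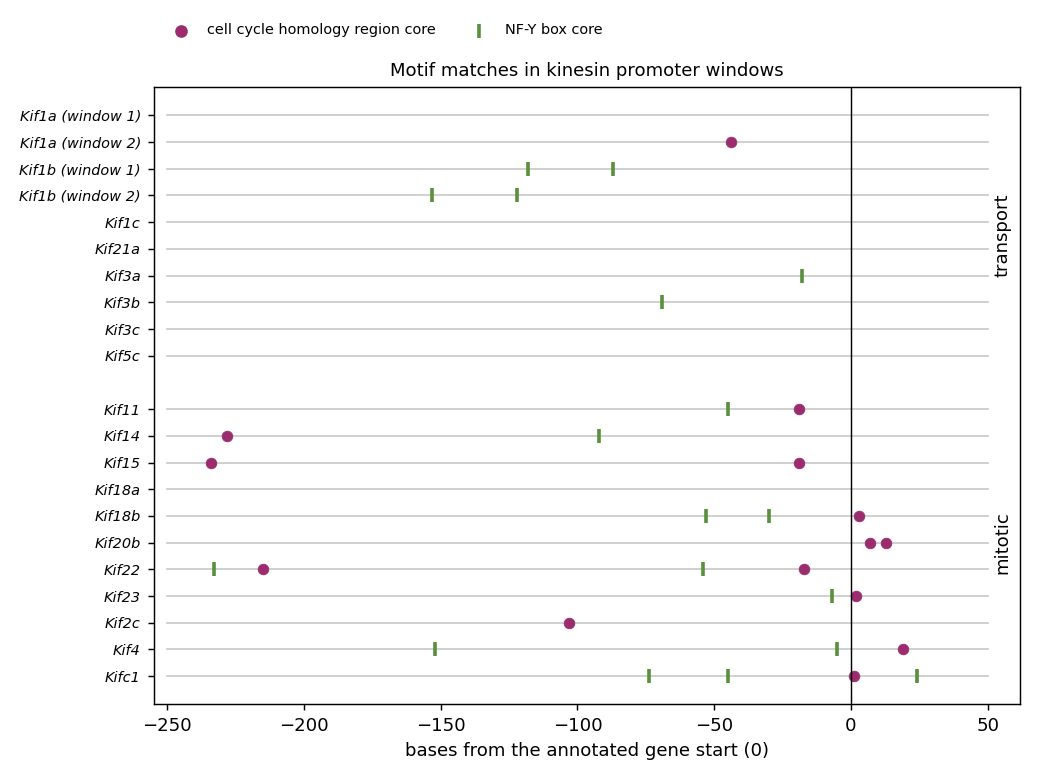
Positions of motif matches in the promoter windows of the transport kinesins (upper rows) and mitotic kinesins (lower rows). The x axis gives bases from the gene start as annotated by RefSeq. Dots mark the core of the cell cycle homology region and bars the core of the NF-Y box. Of 11 mitotic genes, 8 have a dot within 30 bases of the start, and no transport gene has one there.

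As a group, the transport kinesins were far above the mitotic ones in level, with sums of 5111 to 6649 CPM per library against 112 to 131 CPM. Levels between genes are compared here as CPM per kilobase of the gene length in the count table, after TMM scaling, a scaling that sets libraries to a common composition. With vehicle, Kif1a, the motor of synaptic vesicle precursors, was highest at 163 ± 28.1 CPM per kilobase (SD, n = 3 here and below). It was followed by the neuronal kinesin-1 heavy chains Kif5a (128 ± 14.7) and Kif5c (112 ± 12.5), and the mean ± SD ranges of neighbours in this order overlapped. Below a gap came Kif3a (66.4 ± 6.18), a subunit of heterotrimeric kinesin-2, then Kif21b (58.4 ± 9.63), Kifc2 (54.2 ± 6.18), Kif1b (53.7 ± 9.39) and Kif3c (52.9 ± 3.89), each overlapping the next. Kif3b (39.9 ± 1.95) lay clear of its neighbours on both sides. Kif2a (28.7 ± 1.55), a microtubule depolymerase, did too. Kif5b, the kinesin-1 heavy chain found in most cell types, stood with 21.9 ± 2.09 among the lower transport genes, beside Kif21a with 20.6 ± 2.45.

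The lowest transport gene was Kif1c, a motor of Golgi and vesicle traffic, at 6.32 ± 0.22 CPM per kilobase. It overlapped the highest mitotic gene, the chromosome-bound motor Kif22, at 5.79 ± 0.74. Kif11, the motor that pushes spindle poles apart, had 4.84 ± 0.62, and the other mitotic genes ranged down to 0.42 ± 0.10 for Kif18a, which damps chromosome movement at the spindle equator. Of all kinesin CPM per kilobase, the transport genes held 81.3% ± 1.18 with vehicle and 80.2% ± 0.93 with 10HDA, and the mitotic genes 3.38% ± 0.35 and 3.75% ± 0.42. Kif1a, Kif5a and Kif5c alone held 45.3% ± 1.41 and 43.2% ± 0.59. At the other end, Kif12 and Kif2b had 0 counts in all 6 libraries, where 3 counts would be 0.218 to 0.329 CPM, and Kif28 had 0 or 1 count and Kif19a 4 to 12 counts.

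**Figure D2:**
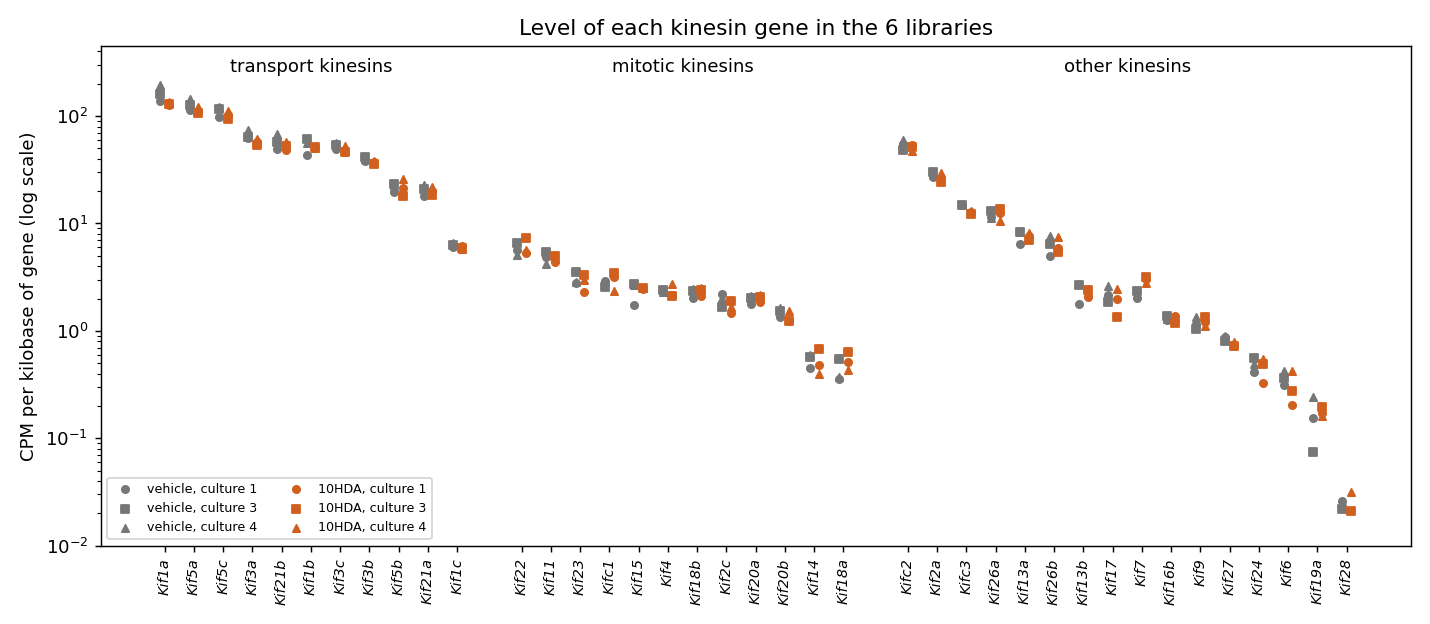
Level of each kinesin gene with at least 1 count, as CPM per kilobase of gene on a log axis, for the transport, mitotic and other kinesins. Each point is 1 library, grey for vehicle and orange for 10HDA, with the shape giving the culture. All transport genes except Kif1c lie above every mitotic gene.

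For changes with 10HDA, a gene was tested when 3 or more libraries reached 1 CPM, which held for 15311 genes, with edgeR's quasi-likelihood test and an adjusted p under 0.1. This kept 37 of the 41 kinesins: 11 of 11 transport, 12 of 12 mitotic and 14 of 18 other ones. None of the 37 passed the threshold, where 78 of all genes did (0.509%, with 0.183% higher and 0.327% lower). At an unadjusted p under 0.05 there were 3 kinesins, Kif1a and Kifc3 lower and Kif7 higher, against 10.4% of all genes (4.87% lower and 5.55% higher), and DESeq2 and limma-voom also called none. With culture as a block in the fit, 2 kinesins passed, Kif1a downwards and Kif7 upwards, against 7.50% of all genes (3.92% higher and 3.58% lower). With the block and without culture 1, 1 kinesin, Kif1a, passed, against 5.32% of all genes (3.30% lower).

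The 11 transport kinesins all had fitted values below 0, from -0.32 for Kif1a to -0.003 for Kif5b on the log2 scale, with a median of -0.12. The median of all genes tested was 0.013, and 47.4% of them were lower with 10HDA. The medians of the transport genes within cultures 1, 3 and 4 were -0.016, -0.23 and -0.17, so the difference was small in culture 1. Leaving out single libraries moved the median to -0.20 (without vehicle culture 1, or without 10HDA culture 4) and to -0.070 (without vehicle culture 4). Without culture 1 the median was -0.20 and 11 of 11 were lower, and without culture 3 it was -0.097 and 8 were lower. With libraries scaled by their size alone, Kif5b (0.05) and Kif21a (0.03) were above 0, but that scaling put the median of all genes at 0.075, and all 11 lay below it. In all 3 cultures, 6 of the 11 were lower with 10HDA, against 17.6% of all genes. The libraries of the 2 treatments did not overlap for 2 of them, Kif1a and Kif3a, where 6.47% of all genes were lower without overlap.

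Kif1a (ENSMUSG00000014602.11, chr1:93015464-93101951, minus strand, GRCm38) had 1281, 1483 and 1801 CPM in the vehicle libraries of cultures 1, 3 and 4. With 10HDA it had 1178, 1210.3 and 1268 CPM. Every 10HDA library lay below every vehicle library, and the vehicle libraries spread more widely. The log2 fold change was -0.32 ± 0.13 (SE), with an adjusted p of 0.417 in edgeR's test. With culture as a block, edgeR gave -0.31 ± 0.099 and an adjusted p of 0.0795, and with the block and without culture 1 the log2 fold change was -0.40 with an adjusted p of 0.027. That last fit, on cultures 3 and 4 alone, was chosen after seeing the data. The culture it left out had the smallest Kif1a difference. Without the vehicle library of culture 4 the log2 fold change was -0.18, with no block, and it did not pass under any single library left out. Both Kif1a libraries of culture 1 were closest to each other, at -0.12 on the log2 scale, while culture 4 gave -0.51.

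Of the kinesin-2 subunits, Kif3a (chr11:53567379-53601967, plus strand) had 223, 227 and 263 CPM with vehicle and 207, 193 and 219 CPM with 10HDA. The groups did not overlap, and the log2 fold change was -0.21 ± 0.10 (edgeR adjusted p = 0.509). Its partner Kif3b, with which it forms the motor of cilia and of some axonal cargo, had 225 ± 11 CPM with vehicle and 210 ± 7.54 with 10HDA, with a log2 fold change of -0.10 ± 0.093. Kif3c, the neuronal alternative partner, had 363 ± 26.6 and 334 ± 26.6 CPM and -0.12 ± 0.10. Both groups overlapped for Kif3b and Kif3c.

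Among the kinesin-1 heavy chains, Kif5a, in which mutations cause axonal disease in humans, had 722, 795 and 907 CPM with vehicle and 695, 668 and 769 CPM with 10HDA. It was lower in each culture, but the highest 10HDA library lay above the lowest vehicle library, and the log2 fold change was -0.19 ± 0.11 (edgeR adjusted p = 0.591). Kif5c had 803 ± 89.4 CPM with vehicle and 733 ± 63.0 with 10HDA, a log2 fold change of -0.13 ± 0.12, and was slightly higher in culture 1 (0.05) and lower in cultures 3 and 4 (-0.31 and -0.13). Kif5b had the same mean in both groups, 162 CPM, with SDs of 15.4 and 30.7, and its cultures went both ways (0.14, -0.40 and 0.21). The order of the 3 heavy chains per kilobase, Kif5a, Kif5c and then Kif5b, was the same with both treatments.

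Of the remaining transport kinesins, Kif1b, Kif1c, Kif21a and Kif21b, none passed the test in any fit described here. Kif1b, which carries mitochondria and synaptic vesicle precursors in its 2 main isoforms, had a log2 fold change of -0.07 ± 0.13, with 0.26 in culture 1 and -0.25 and -0.17 in cultures 3 and 4. Kif1c had -0.09 ± 0.10. Kif21b, a dendritic motor that also restrains microtubule growth, had 712 ± 117 CPM with vehicle and 645 ± 52.8 with 10HDA (-0.14 ± 0.13), and was lower in each culture (-0.016, -0.13 and -0.25). Its relative Kif21a had 133 ± 15.9 and 131 ± 11.8 CPM (-0.03 ± 0.11).

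The 12 mitotic kinesins were divided evenly, with 6 higher and 6 lower and a median log2 fold change of -0.005. Their median was -0.026, 0.035 and 0.017 in cultures 1, 3 and 4, and -0.002 without culture 1. None had groups that did not overlap, where 13.8% of all genes did, and none had an unadjusted p under 0.05. The range ran from -0.23 ± 0.18 for Kif2c, which depolymerises microtubules at centromeres, to 0.32 ± 0.23 for Kif18a. In all 3 cultures, Kif18a, Kif18b and Kif20a were higher and Kif20b was lower, where 21.2% of all genes were higher in all 3. These genes had low counts, and the SEs of their log2 fold changes ran from 0.135 for Kif11 to 0.233 for Kif18a, against 0.0931 for Kif3b to 0.135 for Kif5b among the transport genes.

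Of the mitotic motors that act on the spindle itself, Kif11 (chr19:37376403-37421859, plus strand), whose promoter stretch heads the lines above, had 23.4, 26.3 and 20.3 CPM with vehicle and 21.3, 23.8 and 22.6 CPM with 10HDA. The 10HDA libraries lay inside the vehicle range, and the log2 fold change was -0.05 ± 0.13. Kif15, which can stand in for Kif11, had 8.44, 13.3 and 12.9 CPM with vehicle and 11.9, 12.1 and 12.2 with 10HDA. Its positive log2 fold change of 0.06 ± 0.18 came from culture 1 (0.49), and without culture 1 it was -0.11. Kif18a had 3.50, 5.35 and 3.64 CPM with vehicle and 5.04, 6.25 and 4.27 with 10HDA, higher in each culture but with overlapping groups. Kifc1, a minus-end motor that gathers spindle poles, had 9.43 ± 0.61 and 10.2 ± 1.97 CPM and a log2 fold change of 0.13 ± 0.17. Its near copy Kifc5b had 54 to 115 counts per library, so reads could be divided between the 2 genes and the Kifc1 values are uncertain.

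Of the motors of chromosome arms, Kif4, which is X-linked, had 13.0 ± 0.22 CPM with vehicle and 12.9 ± 1.97 with 10HDA, a log2 fold change of -0.02 ± 0.15. Kif22 had 11.9 ± 1.53 and 12.6 ± 2.25 CPM (0.08 ± 0.17). Processed pseudogenes of both took at most 3 counts in any library.

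Of the motors of cytokinesis, Kif23, the centralspindlin motor, had 9.52, 12.2 and 9.68 CPM with vehicle and 7.82, 11.3 and 10.2 with 10HDA, and its log2 fold change was -0.10 ± 0.18. Kif20a, which relocates the chromosomal passenger complex at anaphase, had 7.43 ± 0.62 and 7.72 ± 0.52 CPM (0.05 ± 0.16). Kif20b had 8.41 ± 0.88 and 7.40 ± 0.90 CPM, lower in each culture with a log2 fold change of -0.19 ± 0.17. Kif14, at 5.50 ± 0.81 and 5.30 ± 1.51 CPM, went up in cultures 1 and 3 and down in culture 4 (0.08, 0.26 and -0.57). The astral microtubule motor Kif18b had 8.19 ± 0.82 and 8.29 ± 0.73 CPM and a log2 fold change of 0.01 ± 0.16.

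**Figure D3:**
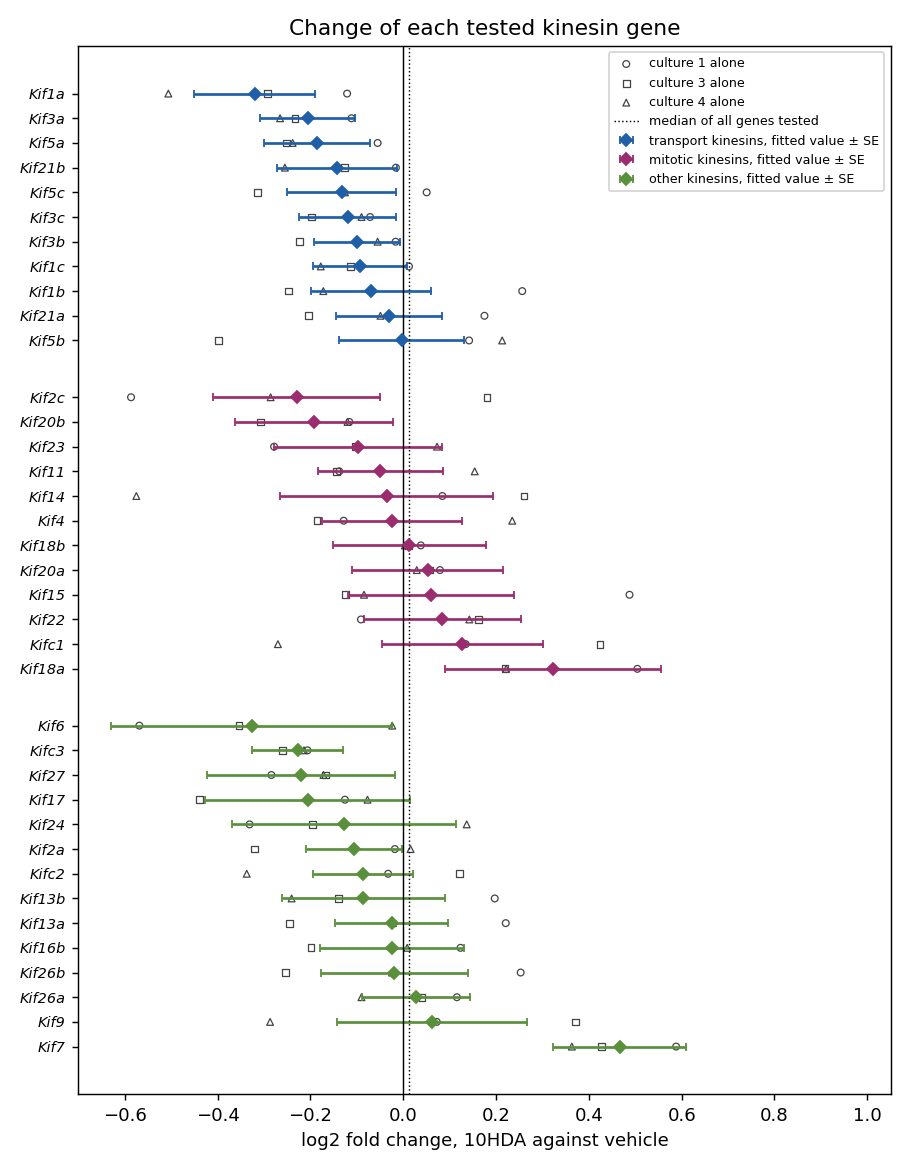
Log2 fold change of each tested kinesin gene, 10HDA against vehicle. Diamonds are the fitted values with bars of 1 SE, open symbols are the differences within cultures 1, 3 and 4, and the dotted line is the median of all genes tested (0.013). All 11 transport diamonds lie left of that line, and the 12 mitotic ones lie on both sides of it.

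The other kinesins included the gene with the largest positive value. Kif7 (ENSMUSG00000050382.10, chr7:79698098-79715720, minus strand), a motor-like protein of the primary cilium that regulates Hedgehog signalling, had 9.25, 10.8 and 9.93 CPM with vehicle and 13.99, 14.5 and 12.8 CPM with 10HDA. Every 10HDA library lay above every vehicle library, as in 7.30% of all genes. The log2 fold change was 0.47 ± 0.14 (edgeR adjusted p = 0.291), and with culture as a block it was 0.47 ± 0.14 with an edgeR adjusted p of 0.0613. Cultures 1, 3 and 4 gave 0.59, 0.43 and 0.36. With the block and without culture 1, Kif7 did not pass the threshold.

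Kifc3, a minus-end motor of cell junctions and epithelial transport, had 55.9, 55.7 and 57.3 CPM with vehicle and 48.4, 46.5 and 49.4 CPM with 10HDA. The groups did not overlap and each was tight, with a log2 fold change of -0.23 ± 0.098 (edgeR adjusted p = 0.449, and 0.214 with the block). Kif27, the closest relative of Kif7, was the only other gene of the 14 without overlap, at 3.85 ± 0.20 and 3.31 ± 0.17 CPM (-0.22 ± 0.20). Of the 14, 1 was thus higher and 2 were lower without overlap (21.4%). Among all genes 13.8% had no overlap, with 7.30% higher and 6.47% lower. The median of the 14 was -0.086, with 3 higher and 11 lower. Kif1bp had 101 ± 6.06 and 95.7 ± 7.04 CPM.

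Summed over their genes, the transport kinesins had 5141, 6082 and 6649 CPM in the vehicle libraries of cultures 1, 3 and 4 and 5173, 5111 and 5599 CPM in the 10HDA libraries. Vehicle culture 1 lay within the range of the 10HDA libraries, so the groups overlapped. The ratio of 10HDA to vehicle means was 0.889, and within cultures it was 1.01, 0.840 and 0.842. The mitotic kinesins summed to 115, 130 and 120 CPM with vehicle and 112, 131 and 121 CPM with 10HDA. Here the 2 libraries of each culture were closer to each other than the cultures were, with a ratio of means of 0.994 and of 0.977, 1.00 and 1.00 within cultures. The mitotic sum as a percentage of the transport sum was 2.06% ± 0.22 with vehicle and 2.29% ± 0.23 with 10HDA, and it was higher with 10HDA in cultures 3 and 4 but not in culture 1. No test was run on these sums, since the smallest p of an exact permutation test is 0.1 at 3 libraries per group.

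Markers of cell types were measured beside these sums. In bulk RNA, fewer cells of a type and less RNA per cell cannot be told apart. Of 14 neuron markers, 13 were lower with 10HDA, with a median log2 fold change of -0.25. None passed the threshold without the block (0.509% of all genes), and 5 did with it (7.50% of all genes), namely Rbfox3, Snap25, Syt1, Syn1 and Gap43, all downwards. The markers summed to 12504 to 13319 CPM with vehicle and 10569 to 11552 CPM with 10HDA, with no overlap and a ratio of 0.857. The ratio was 0.857, 0.845 and 0.867 in cultures 1, 3 and 4, where that of the transport kinesins was 1.01 in culture 1. Astrocyte markers were lower still, with 11 of 11 tested genes below 0, sums of 2033 to 2446 against 1487 to 1862 CPM, and a ratio of 0.753. Without the block 4 of them passed, among them Gfap (-1.27) and Aldoc (-0.80), and with the block 7 did. All 14 neuron markers and all 28 cell division genes passed the filter on low counts, so RNA of both cell states of the comparison was present. The cell division genes were far lower, with sums of 502 to 617 CPM per library. Of 8 microglia markers none passed that filter. The part of cell composition in the transport kinesin values was not tested.

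**Figure D4:**
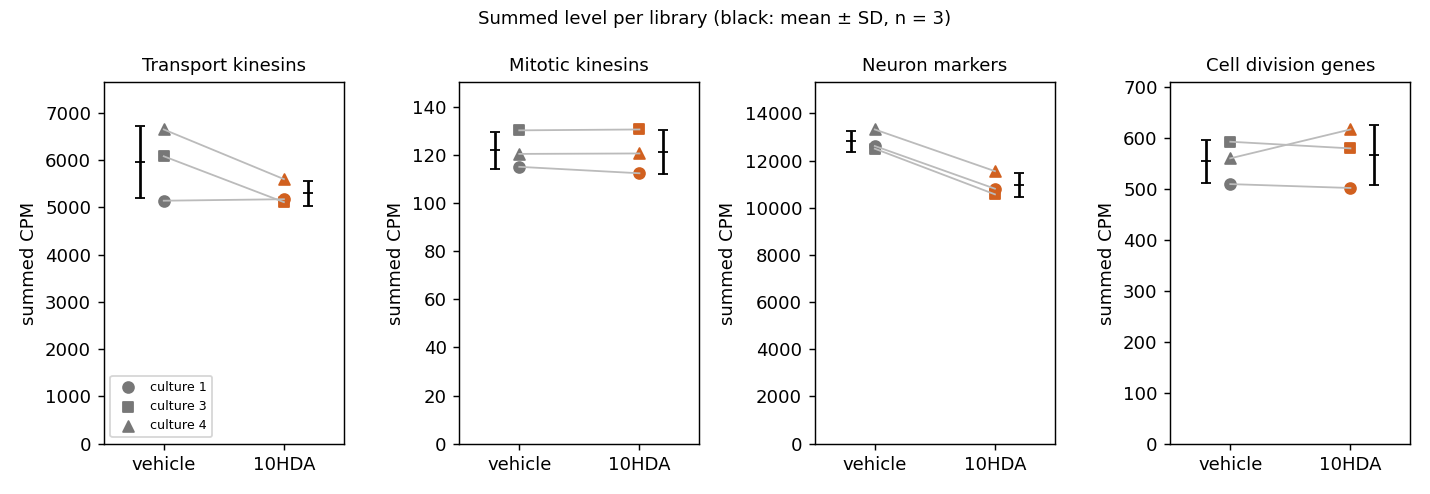
Summed CPM per library of the transport kinesins, mitotic kinesins, neuron markers and cell division genes, with lines joining the vehicle (grey) and 10HDA (orange) library of a culture, and black bars giving mean ± SD (n = 3). The neuron markers are lower with 10HDA in all 3 cultures, the transport kinesins in cultures 3 and 4 only, and the sum of the mitotic kinesins has a ratio of 0.977 to 1.00 in each culture. The sum of the cell division genes is higher with 10HDA in culture 4 alone.

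The genes that work with the transport motors gave a similar median over all libraries, but not within cultures. Of 18 light chains, adaptors and cargo linkers, 17 were tested, 14 were lower, and the median was -0.12. Their medians within cultures 1, 3 and 4 were -0.096, -0.056 and -0.10. Those of the transport kinesins were -0.016, -0.23 and -0.17. None passed the threshold, and with culture as a block 1 did, where 7.50% of all genes did. This was Klc1, the kinesin-1 light chain that binds cargo to the Kif5 heavy chains, with 749.9, 613 and 771 CPM with vehicle and 541, 541 and 622 CPM with 10HDA. Its groups overlapped through vehicle culture 3, and the log2 fold change was -0.33 ± 0.12 (edgeR adjusted p = 0.36), or -0.32 ± 0.094 with an edgeR adjusted p of 0.0534 with the block. The scaffold Mapk8ip2, which links kinesin-1 to signalling kinases, had 285 ± 6.05 and 253 ± 6.25 CPM, without overlap (-0.17 ± 0.09).

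Cytoplasmic dynein and its activator dynactin move cargo in the opposite direction, back to the cell body. Of their 23 genes, 14 were lower, with a median of -0.035, and none passed the threshold with or without the block. The smallest p values belonged to the neuronal intermediate chain Dync1i1 (132 ± 7.01 against 111 ± 9.78 CPM, -0.25 ± 0.10), the large dynactin subunit Dctn1 (569 ± 48.1 against 486 ± 29.8 CPM, -0.23 ± 0.10) and the light chain Dynlrb1 (178 ± 36.2 against 147 ± 2.10 CPM, -0.28 ± 0.14). Dynlrb1 was higher with 10HDA in culture 3 (0.073), and its log2 fold change was -0.17 without vehicle culture 1, -0.18 without culture 1, and -0.44 and -0.45 without vehicle culture 3 and without culture 3.

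The 28 partner genes of cell division had a higher median than the mitotic kinesins, at 0.098, with 22 higher and 6 lower with 10HDA. Leaving out a library or a culture moved this median between 0.020, without culture 4, and 0.18, without vehicle culture 3. None passed the threshold, and with culture as a block 1 of 28 did, below the 7.50% of all genes. It was Spc25, a subunit of the kinetochore complex that holds microtubules. Spc25 had 8.17, 8.96 and 6.12 CPM with vehicle and 10.9, 11.6 and 9.86 CPM with 10HDA, without overlap. Its log2 fold change was 0.48 ± 0.18 (edgeR adjusted p = 0.37), and 0.48 ± 0.15 with an edgeR adjusted p of 0.0808 with the block. Ccnb1, the cyclin that starts mitosis, had 4.54 ± 0.78 and 6.47 ± 1.19 CPM (0.52 ± 0.21). Cdca8, of the chromosomal passenger complex, had 14.4 ± 0.88 and 17.0 ± 1.92 CPM, without overlap (0.25 ± 0.14). Summed over the 28 genes the ratio of 10HDA to vehicle was 1.02, with 0.985, 0.978 and 1.10 in cultures 1, 3 and 4. Racgap1, which joins Kif23 in centralspindlin, was lower without overlap (-0.14) and was chosen after its values were seen. Of the 28 genes, 2 were higher and 1 was lower without overlap (10.7%), against 13.8% of all genes.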

How the data were processed

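RNA was sequenced from 6 libraries, 3 per treatment. Per the labels, the library kit kept strand information. According to the methods of the study, the authors aligned untrimmed single-end reads to mm10 with Subjunc 1.4.4 and counted them on Gencode genes with featureCounts, and the strand setting is not given in the sources used here. The submitters' processing notes name R 3.0.2 and edgeR 3.4.2. The deposited values are raw counts per gene, neither normalized nor filtered, with a gene length. The number of further sample columns was 0.

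GENCODE M21 (GRCm38) matched 98% of the identifiers to symbols. Counts were compared with edgeR 4.0.16 (quasi-likelihood test, TMM, R 4.3.3) for genes with 1 CPM in 3 libraries, with Benjamini-Hochberg adjustment over all 15311 genes and a threshold of 0.1. The study's own filter was 10 CPM, which would drop low mitotic kinesins and was an alternative. Differences within a culture used log2 CPM with a prior count of 2. The labels give each culture 1 library of each treatment, so cultures pair the libraries. The deviations of libraries of the same culture correlated at 0.248, 0.224 and 0.449 across genes, against -0.315 to 0.0819 for different cultures. Whether cultures were separate animals is not given, so p-values measure the spread between these libraries. Counting limits cover counting error only.

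The members and lists were chosen with earlier results of these data known. Named genes were all tested transport and mitotic kinesins, other kinesins past the threshold or with an unadjusted p under 0.05, and of the partner lists those past the threshold and the 3 with the smallest p. Of these, 1 gene is not reported here. Exceptions, chosen after their values were seen, are Kif27, the gene matched by symbol alone, genes named for level or absence, and marker genes. Alternatives were other scalings, other filters, DESeq2 1.42.0, limma-voom (limma 3.58.1), the block, a threshold of 0.05, and each library or culture left out. The fit was also run on simulated counts without a culture effect, with changes larger than those of any kinesin here. Its outcome is not given, and it could not show whether changes as small as these would be found. Protein sequences were not used here.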

Additional observations from a re-analysis of the deposited data

How the results depend on the processing

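Of the kinesins tested, 37 in most settings, 24 with 10 CPM as the filter and 39 with no filter, none was called under any scaling, filter, threshold, other tool or left-out library or culture without the block. With culture as a replicate block 2 were called, and 1 with the block and without culture 1, an alternative chosen after seeing the data. The count over all genes was 30 at a threshold of 0.05, 636 with no filter, 180 with DESeq2, 1148 with the replicate block and 797 with the block without culture 1, and 0 to 570 with 1 library or culture left out. It was 0 without the 10HDA library of culture 1, where 778 genes had an unadjusted p under 0.05, and 0 without culture 3, where 1020 did. The replicate block called 1 adaptor (Klc1) and 1 division partner (Spc25), and of the neuron markers named in the text it called 5 that were not called without it. It changed no other call among the kinesins and their partner genes named by rule. Of all called genes 35.9% were higher, against 51.7% with library size alone and 52.3% with the block. With 10 CPM as the filter 66 genes were called, and 5 mitotic kinesins were tested.

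The transport median ranged from -0.20 to -0.070 with 1 library or culture left out, and mitotic minus transport from 0.041 to 0.19. With library size alone the median was 0.056 for mitotic kinesins, 0.026 for dynein and dynactin and -0.055 for adaptors, and the mitotic sum ratio was 1.04. With 1 library or culture left out these ranged from -0.055 to 0.053, from -0.084 to -0.0050, from -0.15 to -0.078, and from 0.951 to 1.03. Directions of single genes near 0 were unstable. With library size alone Kif11 (0.010), Kif14 (0.031), Kif21a (0.031), Kif4 (0.036) and Kif5b (0.055) became positive, and with the block without culture 1 Kif15 was -0.11 and Kif4 0.016. Left-out libraries gave ranges across 0 for Kif11 (-0.16 to 0.046), Kif14 (-0.31 to 0.17), Kif15 (-0.12 to 0.17), Kif18b (-0.063 to 0.079), Kif1b (-0.21 to 0.035), Kif20a (-0.011 to 0.10), Kif21a (-0.13 to 0.046), Kif22 (-0.087 to 0.19), Kif23 (-0.23 to 0.038), Kif4 (-0.18 to 0.045), Kif5b (-0.16 to 0.17) and Kifc1 (-0.062 to 0.27). The cause was not tested. At this depth 4 of 18 other kinesins were too low to test, and all transport and mitotic kinesins were tested.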

Other observations

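Markers of the other cell types a cortical culture can hold were read from the same fit. All 6 tested markers of intermediate progenitors, the dividing cells that give rise to cortical neurons, had fitted values above 0 with 10HDA. Their median log2 fold change was 0.39, and 3 of the 6 were higher in all 3 cultures. Eomes (0.11), with 11 to 45 counts per library, went both ways, at 0.58, 0.014 and -0.65 in cultures 1, 3 and 4. With culture as a block 2 of the 6, Btg2 (0.67) and Insm1 (0.75), passed the threshold, where 7.50% of all genes did. Of 10 radial glia markers, 7 were lower, with a median of -0.10. With culture as a block Vim (0.33) passed upwards and Fabp7 (-0.40) downwards, where 7.50% of all genes passed. For the oligodendrocyte lineage, 6 of 9 tested markers were lower, at a median of -0.046, and the members lay far apart. Sox10 (-1.43), Pdgfra (-1.19) and Cspg4 (-0.91) were lowest. All 3 passed with the block, where 7.50% of all genes did, and Cspg4 also without it, where 0.509% did. The 3 higher genes were Olig2 (0.25), Mog (0.13) and Olig1 (0.07), and none of these passed. Of the meningeal fibroblast list 3 genes were tested, Dcn (-1.02), Col1a1 (-0.006) and Pdgfra, which is also in the oligodendrocyte lineage list. Of the endothelial and pericyte list the pericyte gene Pdgfrb (-1.06) was the 1 gene tested, and the endothelial genes Pecam1, Cldn5, Kdr, Cdh5 and Flt1 were too low to test. The median of all genes tested was 0.013. Whether any of these cell types accounts for a kinesin value was not tested.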
